A study of Mus musculus with 15 samples.

Results

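The MRP8hBCL2 and tethBCL2 mice both carry human BCL2, a gene whose protein blocks apoptosis, and differ in the promoter that drives it. Their 6 arrays, 3 of each, were chosen by genotype from the 15 arrays of 5 groups of mice. Gene expression was read on Affymetrix Mouse Exon 1.0 ST arrays from Sca1+ mononuclear cells of the spleen, with 1 array per mouse. In MRP8hBCL2 mice (3012, 3386 and 3391, the mouse numbers in the sample titles) the transgene is under the MRP8 promoter, that of a calcium-binding protein of neutrophils and monocytes. In tethBCL2 mice (7758, 7465 and 7466) a tetracycline transactivator under the MMTV LTR drives a tet-responsive human BCL-2 transgene. AML post MDS mice (3622, 3626 and 3518) carry NRASD12 and hBCL-2, both under MRP8, and HR-MDS mice (8111, 8019 and 8398) carry MRP8-driven NRASD12 with the tet-driven hBCL-2. MRP8NRASD12 mice (8157, 8158 and 8159) carry the mutant NRAS alone. All mice are of the FVB/N strain, and arrays of FVB/N mice without a transgene were not analysed here. AML post MDS mice were taken at a younger age than HR-MDS mice, and no source used here gives the ages of the founders. The mouse numbers of MRP8hBCL2 and AML post MDS mice begin with 3, those of tethBCL2 mice with 7 and those of the others with 8, so genotype and the series of mouse numbers cannot be told apart.

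Granulocytes mature from progenitors in the bone marrow and, under stress, in the spleen. Early stages make primary granule proteins such as myeloperoxidase and neutrophil elastase, and later stages make secondary and tertiary granule proteins such as lactoferrin. BCL2 and its relatives govern the release of cytochrome c from mitochondria. Proteins that work as complexes, such as the proteasome and the respiratory chain, are built from subunits of separate genes, which is why subunits of the same complex are set side by side below.

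The deposited log2 values of the 6 arrays had medians of 6.85, 6.87 and 7.004 in MRP8hBCL2 mice and 6.73, 6.73 and 6.76 in tethBCL2 mice, in the order of the mouse numbers above. Over all genes, an MRP8hBCL2 array correlated with a tethBCL2 array at r = 0.956 to 0.975, and with the other arrays of its group at a mean of 0.986 to 0.991 (0.993 to 0.994 for the tethBCL2 arrays). Eif2s3y, a Y-linked gene, was at 9.59, 9.74 and 9.75 in MRP8hBCL2 mice and 10.31, 10.05 and 10.30 in tethBCL2 mice, well above the 3.66 to 4.01 of the MRP8NRASD12 arrays, so that both founder groups held cells with a Y chromosome. It was at 3.64 in AML post MDS mouse 3518, against 9.25 and 9.59 in the other AML post MDS mice and 9.78 to 10.11 in HR-MDS mice, so the comparisons with AML post MDS and MRP8NRASD12 mice differ in this mark as well. Sca1 itself (Ly6a) was not among the genes measured by a probe set with a single symbol. The mean log2 value of 16 B cell genes was 11.08 to 11.31 in MRP8hBCL2 arrays and 11.26 to 11.31 in tethBCL2 arrays, and that of 16 stem and progenitor genes was 6.78 to 7.34 in MRP8hBCL2 arrays and 6.27 to 6.32 in tethBCL2 arrays. Bulk values cannot tell fewer cells of a type from less RNA per cell.

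Of 14860 genes, 3354 differed between the founders at an adjusted p under 0.05 in limma (22.6% of the genes tested), 1999 of them higher in MRP8hBCL2 mice (13.5%) and 1355 lower (9.12%). Of these, 565 were higher and 248 lower by more than 2-fold. The 3 arrays of either founder did not overlap for 6251 genes (42.1%). The split by direction depends on the scaling. It was 1795 higher and 2016 lower after quantile normalization, 1400 and 2430 with each array's median subtracted, which moved the median difference of all genes by -0.17 on the log2 scale, and 2711 and 3054 when all probe sets were tested. Calls were concentrated in genes with high values: 43.7% of the 3715 genes with the highest mean values passed and 2.93% of the 3715 with the lowest. The p-values rest on the spread between mice of a group, pooled over all 15 arrays and moderated across genes. Without MRP8NRASD12 mouse 8157, which is of neither founder compared, 3999 genes passed.

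The largest increases included granule genes of neutrophils, and the largest decreases included a mitochondrial membrane gene and a DNA damage gene. The 12 genes that rose most were Ngp, Lcn2, S100a8, S100a9, Mpo, Elane, Ctsg, Chil3, Mt2, Ltf, Chil1 and Camp, with differences of 6.09 to 3.31 on the log2 scale. Ngp, for a secondary granule protein, was at 12.32, 12.23 and 12.42 in MRP8hBCL2 mice and at 6.81, 5.40 and 6.51 in tethBCL2 mice, a 67.9-fold difference (standard error 0.56 on the log2 scale, adjusted p = 8.83e-06 in limma). S100a8, the mouse counterpart of the gene whose promoter drives the MRP8hBCL2 transgene, was at 10.45, 10.40 and 11.03 in MRP8hBCL2 mice and 5.93, 4.63 and 5.92 in tethBCL2 mice (5.13, standard error 0.57, adjusted p = 3.54e-05). The founders did not overlap in either gene. Mt2, a metal-binding metallothionein, was at 8.30, 8.40 and 10.74 in MRP8hBCL2 mice and 5.63, 4.86 and 5.68 in tethBCL2 mice. The 12 genes that fell most were D17H6S56E-5, AY036118, Micos10, Gadd45a, Ccdc88b, Rps18, Clp1, Rida, D030056L22Rik, Cstf2t, Otud6b and C1galt1c1, with differences of -3.63 to -2.13. Micos10, a subunit of the complex that shapes the inner mitochondrial membrane, was at 8.32, 8.31 and 8.30 in MRP8hBCL2 mice and 11.44, 11.15 and 11.06 in tethBCL2 mice (-2.91, standard error 0.17, adjusted p = 4.21e-07). Gadd45a, a p53 target induced by DNA damage, was at 7.92, 7.39 and 7.02 in MRP8hBCL2 mice and 10.26, 10.40 and 10.36 in tethBCL2 mice (-2.90, adjusted p = 6.41e-05).

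The promoters of some of the genes that rose most are shown. These are the 250 bases before the RefSeq start of S100a8 (chr3:90668821-90669070), Mpo (chr11:87793534-87793783), Elane (chr10:79886062-79886311) and Ngp (chr9:110419558-110419807), all on the plus strand of GRCm38.p6, written 5' to 3'. Capitals mark GAGGAAG or its reverse complement, letters that the myeloid factor PU.1 is known to bind.
S100a8: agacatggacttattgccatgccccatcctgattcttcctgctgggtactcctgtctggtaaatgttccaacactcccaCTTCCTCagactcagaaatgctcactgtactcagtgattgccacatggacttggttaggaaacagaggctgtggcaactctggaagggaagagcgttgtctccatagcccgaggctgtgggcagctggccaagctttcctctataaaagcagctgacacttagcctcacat
Mpo: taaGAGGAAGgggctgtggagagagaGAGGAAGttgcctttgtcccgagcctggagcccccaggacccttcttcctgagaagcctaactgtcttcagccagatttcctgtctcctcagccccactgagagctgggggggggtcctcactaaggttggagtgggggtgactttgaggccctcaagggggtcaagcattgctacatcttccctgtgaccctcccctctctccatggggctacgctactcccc
Elane: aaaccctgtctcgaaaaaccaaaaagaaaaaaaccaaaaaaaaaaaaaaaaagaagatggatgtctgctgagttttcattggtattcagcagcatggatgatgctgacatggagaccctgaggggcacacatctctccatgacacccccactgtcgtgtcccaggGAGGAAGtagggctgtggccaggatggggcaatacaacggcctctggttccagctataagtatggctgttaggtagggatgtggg
Ngp: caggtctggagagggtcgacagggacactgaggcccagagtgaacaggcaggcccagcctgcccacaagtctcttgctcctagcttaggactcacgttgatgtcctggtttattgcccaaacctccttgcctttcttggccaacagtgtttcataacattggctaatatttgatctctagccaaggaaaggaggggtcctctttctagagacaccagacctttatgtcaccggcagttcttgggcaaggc
GAGGAAG was found on either strand in 10.3% of 11894 promoters of this length, in 12.9% of those of genes that rose, 9.29% of those of genes that fell and 9.94% of the others. Within the 3715 genes with the highest mean values these shares were 14.1%, 8.46% and 13.0%, so most of the excess in genes that rose went with the level. S100a8 and Elane held it at 1 position each, Mpo at 2 and Ngp at 0. The letters CCGGAAG, of the ETS type, were found in 12.3% of promoters of genes that rose, 18.2% of those that fell and 8.67% of the others, and within the genes with the highest mean values in 14.8%, 19.7% and 15.2%. TGACG, the core of a cyclic AMP response element, was found in 24.2%, 35.7% and 20.6% over all levels and in 27.9%, 39.7% and 29.8% within those genes. A match says only that these letters lie in the window.

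**Figure D1:**
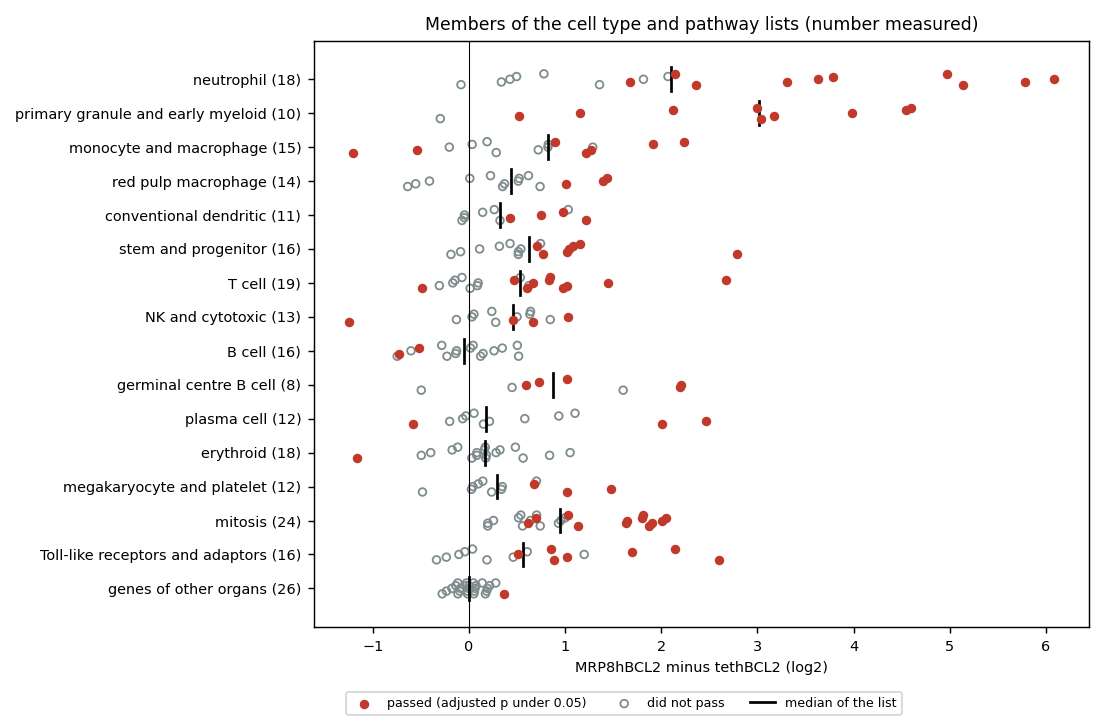
Differences of the members of cell type and pathway lists between MRP8hBCL2 and tethBCL2 mice (log2, horizontal axis), 1 point per gene, filled where the gene passed (adjusted p under 0.05), with the median of each list as a bar. The neutrophil and primary granule lists reach the largest values, all members of the mitosis list lie above 0, and the genes of other organs stay near 0.

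Genes of the neutrophil lineage were higher in MRP8hBCL2 mice at both stages of maturation. Of 18 neutrophil genes, 10 rose, 0 fell and 8 did not pass (median difference 2.10, against 0.03 over all genes). Beside Ngp and S100a8 they included Lcn2, an iron-scavenging lipocalin, at 11.92, 12.12 and 12.53 in MRP8hBCL2 mice and 6.95, 5.72 and 6.56 in tethBCL2 mice. Of 10 primary granule and early myeloid genes, 9 rose and 1 did not pass (median 3.01). Elane, for neutrophil elastase, was at 10.70, 11.49 and 12.48 in MRP8hBCL2 mice and 7.29, 6.99 and 6.75 in tethBCL2 mice (4.55, standard error 0.54, adjusted p = 5.73e-05 in limma). Mpo, for myeloperoxidase, was at 10.05, 10.54 and 11.76 in MRP8hBCL2 mice and 6.15, 6.07 and 6.33 in tethBCL2 mice (4.60, adjusted p = 7.01e-05). Mouse 3391 was the highest of its group for Elane, Mpo and Ctsg. Prtn3, for proteinase 3, lies beside Elane on chromosome 10 and formed with it, Plppr3 and Ptbp1 a run of 4 neighbouring genes that rose, by 3.17, 4.55, 0.71 and 0.46. It was 1 of 66 runs of 3 to 5 neighbours that passed in 1 direction, 55 of them higher. Of all genes 13.5% were higher and 9.12% lower, and how many runs such shares give without clustering was not tested.

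In these genes tethBCL2 mice stood below the rest of the groups. For 15 of the 18 neutrophil genes and 8 of the 10 primary granule genes, the 3 tethBCL2 arrays lay below all 12 other arrays, which was so for 714 of all genes (4.80%). S100a8 was at 12.16, 12.02 and 11.45 in AML post MDS mice, 12.31, 12.39 and 9.68 in HR-MDS mice and 12.32, 12.43 and 12.76 in MRP8NRASD12 mice, so that all 9 arrays with NRASD12 were above tethBCL2 and 8 of them above the MRP8hBCL2 arrays.

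Many stem and progenitor genes and mitosis genes were also lowest in tethBCL2 mice. Among 16 genes of stem cells and progenitors there were 7 increases and 0 decreases (median 0.62, or 0.41 without mouse 3391), and the tethBCL2 arrays were the lowest of all for 8. Cd34, a surface marker of progenitors, was at 7.53, 7.65 and 9.18 in MRP8hBCL2 mice and 5.13, 5.48 and 5.39 in tethBCL2 mice (2.78, standard error 0.41, adjusted p = 0.000303 in limma). Myb, a transcription factor of progenitors, differed by 1.15 and Slamf1, a stem cell surface receptor, by 1.08. All 24 mitosis genes had values above 0 (55.0% of all genes did), 12 passed, all higher, and the median was 0.94. Ccna2, for cyclin A2, was at 8.51, 8.84 and 10.23 in MRP8hBCL2 mice and 7.13, 6.79 and 7.52 in tethBCL2 mice (2.04, standard error 0.34, adjusted p = 0.000722), and Cdk1, for the kinase that starts mitosis, at 7.62, 7.63 and 9.23 in MRP8hBCL2 mice and 6.27, 6.32 and 6.19 in tethBCL2 mice (1.90, adjusted p = 0.00139). The groups did not overlap in either gene, with mouse 3391 far above the other MRP8hBCL2 mice. Without mouse 3391 the median was 0.46 and 10 mitosis genes passed, and 0 did by the methods' t-test after adjustment.

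**Figure D2:**
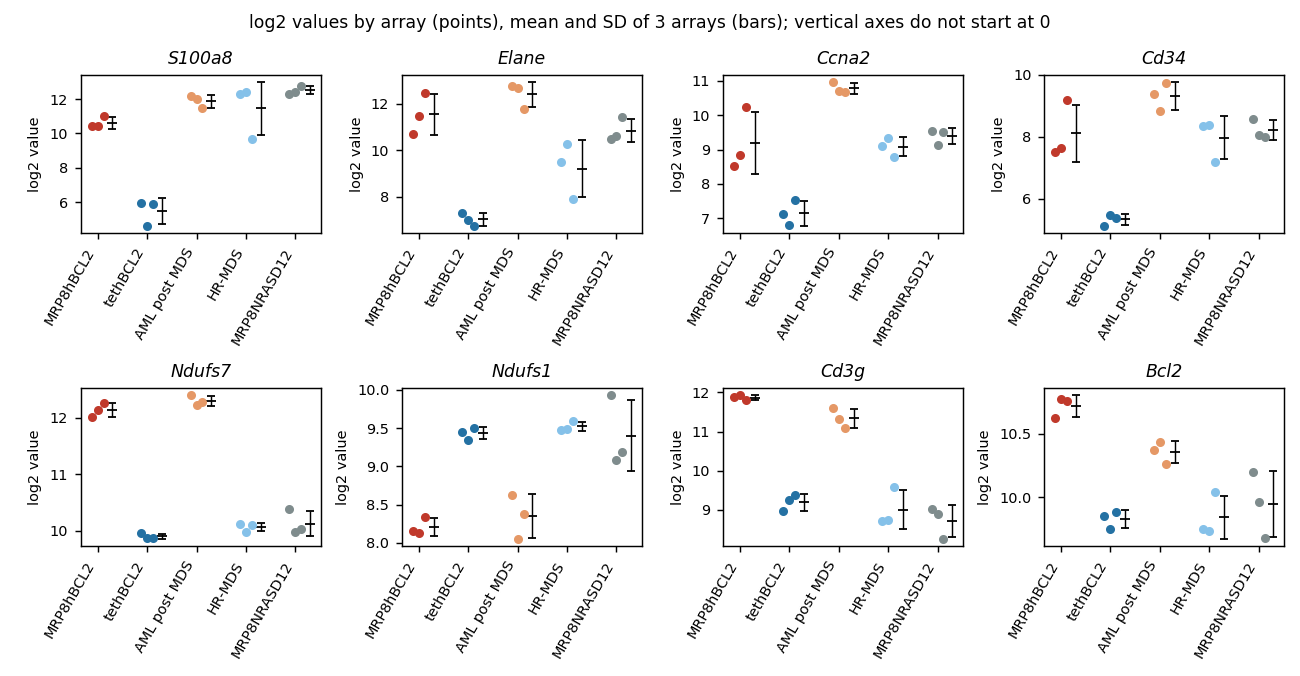
log2 values (vertical axes, which do not start at 0) of 8 genes on each array of the 5 groups, 1 point per array, with the mean and SD of 3 arrays beside them. S100a8, Elane, Ccna2 and Cd34 are lowest in tethBCL2 mice, while Ndufs7, Ndufs1 and Cd3g put the MRP8hBCL2 and AML post MDS arrays on 1 side and the other 9 arrays on the other.

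Myeloid genes outside the granulocyte lineage were mixed. Of 15 monocyte and macrophage genes, 5 rose and 2 fell (median 0.82), and the 7 calls were 4 without mouse 3391, with a median of 0.44, or without mouse 7758. Fcgr4, an activating Fc receptor, was at 6.91, 8.73 and 9.37 in MRP8hBCL2 mice and 5.73, 6.15 and 6.41 in tethBCL2 mice (2.24, standard error 0.55, adjusted p = 0.00961 in limma). Of 14 red pulp macrophage genes, 3 rose and 0 fell, which is 21.4% against 22.6% of all genes. The median was 0.44, or 0.77 with 7 calls without mouse 3012, 0.28 without mouse 7465 and 0.22 without mouse 3391. Among the genes that rose was C1qb, a chain of complement C1q. It was at 9.18, 10.33 and 10.65 in MRP8hBCL2 mice and 8.71, 8.44 and 8.83 in tethBCL2 mice. In these genes mouse 3012 was the lowest of its group. Of 16 Toll-like receptor and adaptor genes, 7 rose and 0 fell (median 0.56), among them the sensors of microbial RNA Tlr13 (2.60), Tlr8 (2.15) and Tlr7 (1.69) and the adaptor Myd88 (1.02). Tlr7 and Tlr8 are neighbours on the X chromosome.

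T cell genes were split within their own receptor. The 19 genes of T cells had 9 increases and 1 decrease (median 0.53). Cd3g, the gamma chain of CD3, was at 11.88, 11.93 and 11.80 in MRP8hBCL2 mice and 8.95, 9.25 and 9.38 in tethBCL2 mice (2.68, standard error 0.24, adjusted p = 7.01e-06 in limma). The epsilon chain gene Cd3e differed by 1.45 (standard error 0.17) and the zeta chain gene Cd247 by 0.83 (standard error 0.14), both past the test. Cd3d, the delta chain, was at 9.35, 9.33 and 9.12 in MRP8hBCL2 mice and 9.46, 9.26 and 9.52 in tethBCL2 mice (-0.15, standard error 0.19, adjusted p = 0.677). Cd3d and Cd8a, at 0.01 (adjusted p = 0.982), were chosen after their values were seen. Thy1 and Cd5, both T cell surface proteins, rose by 1.01 and 0.97. Of 16 B cell genes, 0 rose and 2 fell, which is 12.5% against 22.6% of all genes (median -0.06). The kinase gene Blk fell by 0.72 and the lineage factor gene Pax5 by 0.52 on the log2 scale. Under 8 of the alternatives 4 to 7 B cell genes passed. Among 8 germinal centre B cell genes 5 rose (62.5%, 3 calls without mouse 3391 or without mouse 7465). Of 12 plasma cell genes 2 rose and 1 fell, a share of 25%, near that of all genes. That list had 1 call without mouse 7465 or without mouse 7466, and 5 without mouse 3012. Tnfrsf17, a plasma cell receptor, was at 5.96, 6.25 and 9.14 in MRP8hBCL2 mice and 5.33, 4.90 and 5.10 in tethBCL2 mice, so that most of its difference of 2.01 lay in mouse 3391.

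Among lists of other cell types, some were called near the share of all genes (22.6%) and some above or below it. Of 11 conventional dendritic genes 4 rose and 0 fell (36.4%, 1 call without mouse 7465 or without mouse 3391). Of 13 NK and cytotoxic genes 3 rose and 1 fell (30.8%, 2 calls without mouse 7465). Of 13 basophil, mast cell and eosinophil genes 2 rose and 1 fell (23.1%, 1 call without mouse 3391). The megakaryocyte (25%) and stromal (23.1%) lists were, like the basophil list, near the share of all genes. The endothelial (20%), pancreatic acinar (15.4%) and erythroid (5.56%) lists were below it. Of 18 erythroid genes 0 rose and 1 fell, the transferrin receptor gene Tfrc (-1.16, standard error 0.18, adjusted p = 0.000493 in limma), with a list median of 0.16, or -0.001 with array medians subtracted (3 calls without mouse 3012). Of 12 megakaryocyte and platelet genes 3 rose and 0 fell, of 15 endothelial genes 2 rose and 1 fell (1 call without mouse 7758 or without mouse 3391), and of 13 stromal genes 3 rose and 0 fell (1 call without mouse 7465 or without mouse 3391). Of 13 pancreatic acinar genes 2 rose and 0 fell, with 0 calls without mouse 7758, 7466, 3012 or 3391 and 1 without mouse 7465. For 26 genes of other organs the median was -0.001, with 1 passing (2 without mouse 7758), and 0 of 13 olfactory receptor genes passed (limma, the first list's mean level 4.99 to 5.09 in MRP8hBCL2 arrays and 4.98 to 5.04 in tethBCL2 arrays).

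Of the genes of the BCL2 family, the mouse gene Bcl2 was at 10.62, 10.78 and 10.76 in MRP8hBCL2 mice and 9.85, 9.75 and 9.88 in tethBCL2 mice (0.89, standard error 0.13, adjusted p = 0.000234 in limma). No source used here says whether its probes also read the human transcript. Of 18 family genes 2 rose and 4 fell. Bak1, which forms pores in mitochondria, rose by 1.24. Bnip3l, a receptor for the removal of mitochondria, fell by 1.16, the BCL2 antagonist gene Pmaip1 by 0.90 and the protective genes Mcl1 and Bcl2l2 by 0.48 and 0.46, both named after their values were seen. Nras, the mouse gene of the other transgene, was at 9.51, 9.74 and 9.73 in MRP8hBCL2 mice and 9.72, 9.72 and 9.81 in tethBCL2 mice.

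Of 34 complexes with at least 4 measured members, 23 had members that passed in both directions. Of all genes 13.5% rose and 9.12% fell. The SD of the differences was 0.50 over all genes, against a median of 0.52 within complexes. These are not matched for level, since the SD was 0.25 in the 3715 genes with the lowest mean values. It was 0.60 in the 3715 genes with means of 6.93 to 8.64, and 0.67 in the 3715 with the highest. On the founder arrays the mean values of the complexes ran from 7.25 to 11.83. The median within complexes was thus below the SD of genes at such levels, and a comparison matched gene by gene was not made. Complex I of the respiratory chain, which oxidizes NADH, had 27 measured members, of which 13 rose, 2 fell and 12 did not pass (median 0.38), between -1.22 and 2.23. The core subunit gene Ndufs7 was at 12.01, 12.13 and 12.25 in MRP8hBCL2 mice and 9.95, 9.88 and 9.87 in tethBCL2 mice (2.23, standard error 0.11, adjusted p = 1.77e-07 in limma). Ndufa2, Ndufb3 and Ndufc2 rose by 2.05, 1.96 and 1.74. The gene of the largest subunit, Ndufs1, was at 8.15, 8.13 and 8.34 in MRP8hBCL2 mice and 9.45, 9.35 and 9.50 in tethBCL2 mice (-1.22, standard error 0.19, adjusted p = 0.000459), chosen after its value was seen. Of 7 ATP synthase genes 3 rose and 1 fell, with the delta subunit gene Atp5d at 2.05 and the alpha subunit gene Atp5a1 at -0.60. Of the large subunit of the mitochondrial ribosome 13 of 41 genes rose and 6 fell (12 calls without mouse 7466), and of the small subunit 3 of 25 rose and 7 fell, with Mrpl34 at 1.92 and Mrps26 at -1.69.

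The proteasome, which degrades ubiquitinated proteins, was split between its parts. Of 10 genes of the 20S core 4 rose and 3 fell, with the beta subunit gene Psmb2 at 1.19 and the alpha subunit gene Psma2 at -0.61, and 4 passed without mouse 7466. Of 19 genes of the 19S regulator 0 rose and 8 fell (median -0.34), and 13 passed with array medians subtracted. Psmc5, an ATPase of its base, was at 7.89, 7.87 and 7.96 in MRP8hBCL2 mice and 9.13, 9.42 and 9.37 in tethBCL2 mice (-1.40, standard error 0.13, adjusted p = 8.28e-06 in limma). The chaperonin CCT, which folds actin and tubulin, was uniform in direction: all 6 measured genes were below 0 and 4 fell (median -0.62), led by Cct8 at 9.29, 9.26 and 9.35 in MRP8hBCL2 mice and 10.35, 10.49 and 10.67 in tethBCL2 mice. Of 16 aminoacyl-tRNA synthetase genes 0 rose and 5 fell (median -0.24), with Cars at -0.88 and Nars at -0.84, and 10 passed with array medians subtracted.

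Calls lay on both sides in the SF3 complex and RNA polymerase II and on 1 side in the large ribosomal subunit. In the SF3 splicing complex 2 of 7 genes rose and 2 fell, with Sf3b5 at 1.01 and Sf3b2 at -0.83. In RNA polymerase II, 3 of 9 rose and 2 fell, with Polr2j at 1.79 and the second largest subunit gene Polr2b at -0.96. Of 9 genes of the large cytosolic ribosomal subunit 0 rose and 3 fell, with Rplp0 at -2.03, and of 7 of the small subunit 1 rose and 3 fell, with Rps20 at 0.78. Ribosomal protein genes have many processed copies in the genome, and their probe sets may not read 1 gene alone. In MHC class II, which presents peptides to CD4 T cells, the beta chain gene H2-Ab1 was at 11.55, 11.70 and 11.51 in MRP8hBCL2 mice and 12.78, 12.74 and 12.79 in tethBCL2 mice (-1.18, standard error 0.16, adjusted p = 0.000121 in limma). Its partner chain gene H2-Aa, chosen after its value was seen, was at 12.60, 12.65 and 12.64 in MRP8hBCL2 mice and 12.79, 12.75 and 12.89 in tethBCL2 mice (-0.18, adjusted p = 0.339). The peptide loading gene H2-DMa rose by 1.40.

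Among pathways outside these complexes, the catalase gene rose in MRP8hBCL2 mice, and the genes of the RAS and MAPK list that passed fell. Of 14 genes of RAS and MAPK signalling, 0 rose and 5 fell, which is 35.7% against 22.6% of all genes (median -0.05, 3 calls without mouse 7466). Among them were Spry2 (-1.28) and Spred2 (-0.90, but 0.06 as the mean of its probe sets), both inhibitors of the pathway. The kinase gene Map2k1 fell as well (-0.55). Of 22 DNA repair genes 0 rose and 5 fell, which is 22.7% against 22.6% of all genes (median 0.10; 3 calls without any 1 of mice 7758, 7465, 7466 or 3386), among them the end-joining partners Xrcc5 (-0.95) and Xrcc6 (-0.66). Of 18 genes of replicative polymerases and their helpers 5 rose and 0 fell, which is 27.8% against 22.6% of all genes. Pold2 was at 1.31 and Rfc5 at 1.22 (list median 0.37, or 0.17 without mouse 3391, with 8 calls). Among 15 antioxidant genes 4 rose and 0 fell, which is 26.7% against 22.6% of all genes. They were led by Cat, for catalase, at 10.85, 11.03 and 11.16 in MRP8hBCL2 mice and 9.30, 9.43 and 9.46 in tethBCL2 mice (1.61, standard error 0.15, adjusted p = 1.00e-05 in limma). Of 19 interferon-stimulated genes 5 rose and 1 fell, with Ifit1 at 1.98 and Gbp3 at -0.89, and of 16 cholesterol synthesis genes 1 rose and 5 fell, with Msmo1 at -1.22 and Fdft1 at 0.67. Of 11 histone genes 4 rose and 0 fell (2 calls without any 1 of mice 7758, 7465, 3386 or 3391, and a median of 0.35 without mouse 3391 against 0.56), led by H2bc1 at 2.27. The p53 target list had 2 increases and 2 decreases among 16 genes, which is 25% against 22.6% of all genes. The shares were 31.6% in the interferon list, 37.5% in the cholesterol list and 36.4% in the histone list.

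**Figure D3:**
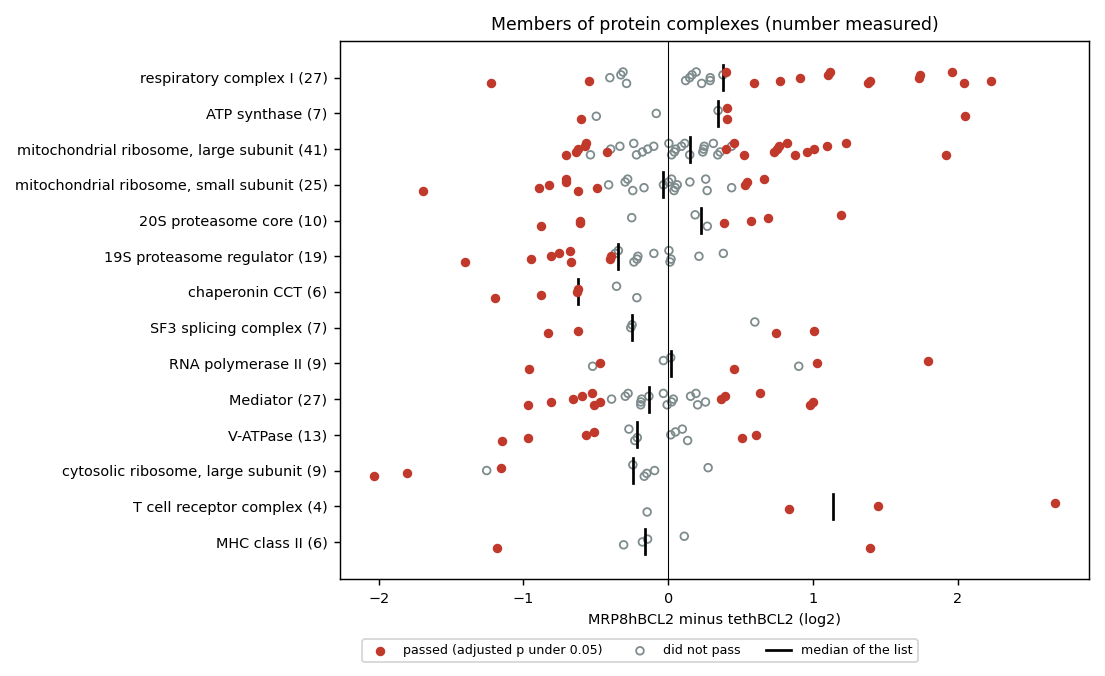
Differences between MRP8hBCL2 and tethBCL2 mice (log2, horizontal axis) of the measured members of 14 complexes, 1 point per gene, filled where it passed (adjusted p under 0.05), with the median of each complex as a bar. Filled points lie on both sides of 0 in complex I, from Ndufs1 at -1.22 to Ndufs7 at 2.23, and all 6 CCT genes lie below 0.

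The comparison of AML post MDS with HR-MDS mice shares no arrays with that of the founders and has the same change of BCL2 promoter and the same change of mouse numbers, from 3 at the front to another digit. It gave 3594 calls (24.2%), 2123 higher in AML post MDS mice (14.3%) and 1471 lower (9.90%). Of the 3354 genes that differed between the founders, 3288 (98.0%) had the same sign there, 2519 passed in the same direction, which is 75.1% of the founders' calls and 70.1% of those of the double transgenics, and 0 passed in the opposite direction. Across all 14860 genes, which are not independent, the differences correlated at r = 0.83. Several of the genes described above had close values in both: 2.24 for Ndufs7, -1.17 for Ndufs1, 2.12 for Atp5d, -1.34 for Psmc5, 2.33 for Cd3g, -1.13 for H2-Ab1, 1.63 for H2-DMa and -3.17 for Micos10 between AML post MDS and HR-MDS mice. Over the members of each complex the differences of the 2 comparisons correlated at a median r of 0.95 over the 34 complexes, with the lowest at 0.57 in MHC class I. The CCT genes had a median of -0.14 with 2 lower between AML post MDS and HR-MDS mice, against -0.62 with 4 lower between the founders, and COP9 signalosome genes 0.37 against -0.01.

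Many of these genes followed the first digit of the mouse numbers in all 15 arrays. For 1960 genes (13.2%) the 6 MRP8hBCL2 and AML post MDS arrays lay on 1 side of the other 9. Those genes made up 1731 (51.6%) of the genes that differed between the founders, while the tethBCL2 arrays stood apart from all 12 others for 773 (23.05%) of them (1114 of all genes, 7.50%) and the MRP8hBCL2 arrays did for 286 (8.53%) of them (462 of all genes, 3.11%). Each of these patterns requires that the founders do not overlap, which was so for 6251 of all genes (42.1%). Higher shares among genes that differed between the founders than among all genes are thus partly built in. The 6 arrays stood apart for 15 of the 27 complex I genes, 14 of them higher, for 0 of the 18 neutrophil genes and for 0 of the 24 mitosis genes. For 16 of the mitosis genes tethBCL2 was instead the lowest group. Ndufs7 was at 12.40, 12.23 and 12.27 in AML post MDS mice, 10.12, 9.98 and 10.10 in HR-MDS mice and 10.38, 9.97 and 10.03 in MRP8NRASD12 mice (0.17 between AML post MDS and MRP8hBCL2 mice, adjusted p = 0.540 in limma, and 0.17 between HR-MDS and tethBCL2 mice, adjusted p = 0.651). What part the series of mouse numbers has in these differences was not tested, and with 1 BCL2 promoter in each it cannot be told apart from the promoter.

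**Figure D4:**
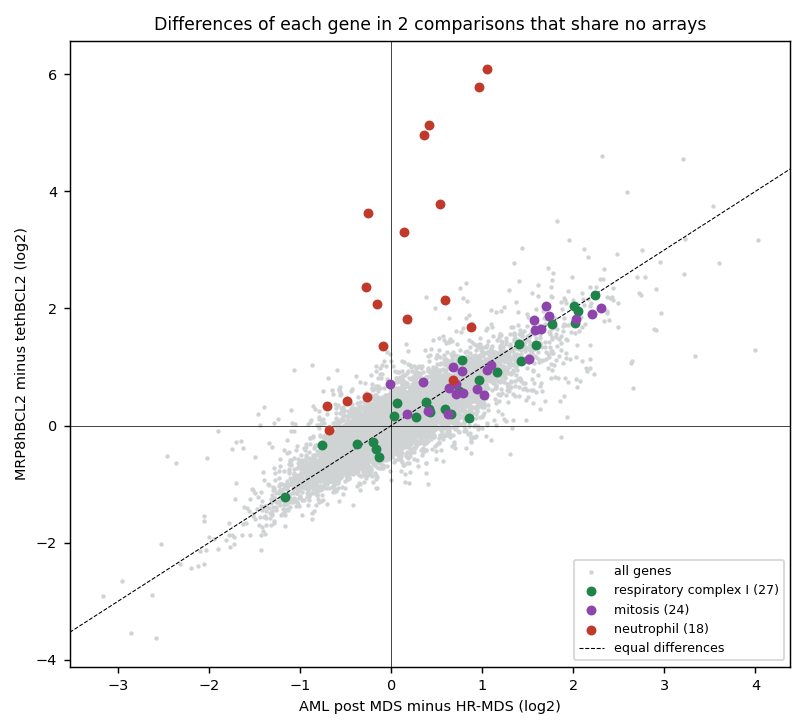
Difference of each gene between MRP8hBCL2 and tethBCL2 mice (vertical axis, log2) against that between AML post MDS and HR-MDS mice (horizontal axis, log2), for 14860 genes, with 3 lists in colour and equal differences as a dashed line. Complex I and mitosis genes lie along the line, and most neutrophil genes lie far above it, with Ngp at 6.09 on the vertical and 1.05 on the horizontal axis.

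Some lists departed from this likeness, with the neutrophil list among them. Between AML post MDS and HR-MDS mice, 0 of 18 neutrophil genes passed (median 0.16), and S100a8, Ltf and Camp were at 0.42, -0.26 and 0.14. Primary granule genes were intermediate, with 7 of 10 higher in AML post MDS mice (median 1.91) and Elane at 3.20. Red pulp macrophage genes had a median of -0.57 between AML post MDS and HR-MDS mice, with 2 higher and 4 lower, against 0.44 between the founders. Interferon-stimulated genes had 0 higher and 5 lower there, and stem and progenitor genes a median of 0.03. HR-MDS mouse 8398, at 9.68 for S100a8, was below the other HR-MDS mice in these genes. The difference between the 2 comparisons was itself tested: no gene passed (0 of 14860 in limma, 684 at an unadjusted p under 0.05, smallest adjusted p = 0.114, 14 with array weights, 11 without HR-MDS mouse 8398 and 8 without MRP8hBCL2 mouse 3012). It was -5.04 for Ngp (adjusted p = 0.114) and -4.72 for S100a8 (adjusted p = 0.114), and 0.04 as a median over the mitosis genes. Stem cell gene Angpt1, a ligand of the TIE2 receptor, was at 5.88, 5.56 and 6.29 in MRP8hBCL2 mice and 5.11, 4.84 and 4.66 in tethBCL2 mice (1.04, adjusted p = 0.0273), but at 6.10, 5.50 and 6.21 in AML post MDS mice and 7.03, 7.08 and 6.29 in HR-MDS mice (-0.87, adjusted p = 0.0596). Its tethBCL2 values lay in the range of the 3715 genes with the lowest means (up to 5.23), and the table has no call against background, so the size of its founder difference is uncertain.

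The spread among members of a complex was wider in the comparisons that set mouse numbers beginning with 3 against those beginning with 7 or 8. The same comparisons set MRP8-driven against tet-driven BCL2, which cannot be told apart from the mouse numbers. The SD of the members' differences had a median over 34 complexes of 0.52 between MRP8hBCL2 and tethBCL2 mice and 0.58 between AML post MDS and HR-MDS mice. It was 0.22 between AML post MDS and MRP8hBCL2 mice (both numbered from 3), 0.18 between HR-MDS and tethBCL2 mice (8 and 7) and 0.14 between HR-MDS and MRP8NRASD12 mice (both 8). These comparisons were added after the data were seen, and they share arrays with the others. The spread was larger between the founders than between HR-MDS and tethBCL2 mice in 33 of the 34 complexes, and than between AML post MDS and MRP8hBCL2 mice in 32. Over all genes the SD of the differences was 0.50 and 0.51 in the first pair of comparisons and 0.33, 0.33 and 0.23 in the other 3, so it was lower there in all genes as well.

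**Figure D5:**
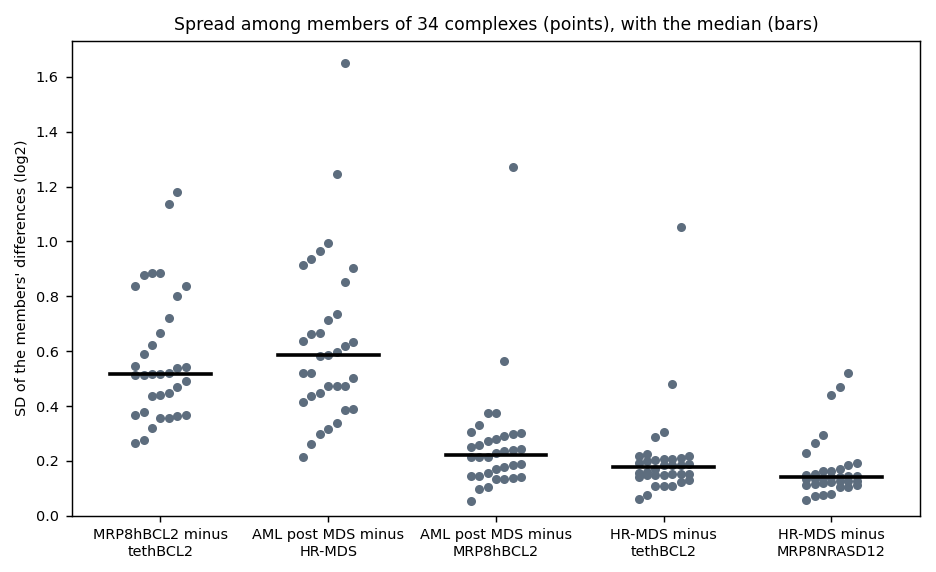
SD of the log2 differences among the measured members of each of 34 complexes (vertical axis, 1 point per complex) in 5 comparisons, with the median as a bar. The median is 0.52 and 0.58 in the comparisons on the left, and 0.22, 0.18 and 0.14 in the others. Those on the left set mouse numbers beginning with 3 against 7 or 8 and also MRP8-driven against tet-driven BCL2.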

How the data were processed

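The log2 values were deposited by the authors as 1 table of 15 Affymetrix Mouse Exon 1.0 ST arrays, made with EASANA and FAST DB on the mouse build mm9 per the labels and methods. No source used here gives how probes were summarised and arrays scaled, and no further normalization was applied. The number of arrays limits the precision.

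Of 23332 probe sets, 14996 had 1 gene symbol, 1019 several and 7317 none in the platform annotation, and 14941 were matched to current symbols by gene ID. The row with the highest mean stood for each of 14860 genes (135 had more than 1). Means of 5 groups of 3 arrays were fitted with limma 3.58.1 in R 4.3.3, with two-sided moderated tests and Benjamini-Hochberg adjustment over all genes at a threshold of 0.05. With 3 arrays against 3 an exact two-sided permutation test cannot go below p = 0.1. The comparisons were MRP8hBCL2 minus tethBCL2, AML post MDS minus HR-MDS, and the difference of both. The members and the gene lists were chosen with earlier results of these data known. Named genes were the 12 that rose and the 12 that fell most among those that passed and up to 4 of each list. On simulated data the fit recovered 38 of 50 genes changed by 2-fold and 22 of 50 changed by 1.5-fold. There 14660 of 14860 genes were left unchanged and the noise was independent between genes. With 3354 calls in the data, the adjusted threshold differs, so these rates need not hold for them. Promoters came from RefSeq on GRCm38.p6. The alternatives were other scalings, filters, array weights, all probe sets, fits without 1 array each, and the methods' t-test.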

Additional observations from a re-analysis of the deposited data

Results flagged for a closer look

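Angpt1 was higher in MRP8hBCL2 than in tethBCL2 mice by 1.04 and lower in AML post MDS than in HR-MDS mice by 0.87 (a difference of -0.87), with no overlap of the arrays in either comparison. The test of the difference between the comparisons gave -1.91 with an adjusted p of 0.499 in limma, which did not pass. The tethBCL2 values, 4.66 to 5.11, lay in the range of the 3715 genes with the lowest means, so the size of the founder difference is uncertain.

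Probe sets outside the comparisons also differed between the founders. When every probe set was tested, 2303 of 7317 with no gene symbol (31.5%) and 206 of 1019 with several symbols (20.2%) passed in limma.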

How the results depend on the processing

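The founders' 3354 genes became 5586 with array weights and 5765 with all probe sets, and ranged from 2517 to 3288 when each founder array was left out in turn. The methods' t-test gave 2425 after adjustment and 4850 before. The 3594 genes of AML post MDS against HR-MDS mice became 5741 with all probe sets and 1408 with the methods' t-test after adjustment, and 2783 to 3132 with each array left out. The difference between both comparisons, with 0 genes, gave 14 with array weights, 1 with all probe sets and 0 to 11 with each array left out. Over 444 named genes and 16 alternatives, 6249 results kept their direction and side of the threshold, 838 no longer passed, 5 newly passed and 1 reversed: Spred2 was at -0.90 and at 0.06 (0.0607, adjusted p = 0.892 in limma) with the mean of its probe sets. The calls of the primary granule list (9) became 5, of the stem and progenitor list (7) 3, of the Toll-like receptor list (7) 2 and of the mitosis list (12) 0 with the methods' t-test. The neutrophil list gave 8 to 14 calls. Subtracting array medians turned the sign of 16 list medians and quantile normalization that of 2. The cause was not tested. No paired analysis was possible because the mouse numbers differ in every group and pair no samples.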
